A study of Mus musculus with 2 samples.

Results

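The mesenchyme of the embryonic pancreas holds a minority of cells rich in transcripts of Lum, which encodes lumican, a proteoglycan of the collagen matrix. They are described here in 1 control and 1 knockout-titled pancreas of C57BL/6 mouse embryos at embryonic day 13.5. A cell was counted as mesenchymal when it had at least 500 genes, at least 1000 unique molecular identifiers (UMIs, each marking 1 captured transcript molecule), at most 10% of UMIs on mitochondrial genes, and at least 3 UMIs on Col3a1 and Col1a2 together. It also had to carry fewer than 2 UMIs on each pair of markers of epithelium (Epcam, Cdh1), mesothelium (Upk3b, Lrrn4) and endothelium (Pecam1, Cdh5). Mesenchymal cells with at least 3 Lum UMIs are called Lum-high and the remaining ones Lum-low. The rule found 454 Lum-high cells, 299 of them control and 155 knockout-labelled. They are drawn from 4506 mesenchymal cells (2524 and 1982), 6883 cells that passed the quality filters and 6944 deposited barcodes.

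The series concerns Dpy30, a shared subunit of the Trithorax group (COMPASS) enzymes that methylate histone H3, and its design text names the second embryo's genotype Dpy30∆P. Neither the Cre driver nor the deleted stretch is given in the sources used here. Cells freed with trypsin were sorted and run with droplet 3' sequencing, with 1 library for each embryo. No difference between the libraries therefore has a replicate check, no test was possible, and embryo, sex, litter and library cannot be told apart from genotype. The level of Dpy30 in mesenchymal cells was not lower in the knockout-labelled library. It was 101 counts per 1000000 UMIs (CPM) in control and 114 CPM in knockout-labelled Lum-high cells, and 99.1 and 113 CPM in Lum-low cells. The 3' tags cannot show a deletion that lies elsewhere in the gene, and whether Dpy30 was deleted in these mesenchymal cells was not tested. The embryos differed in sex: Xist, the RNA that silences an X chromosome in female cells, had 0 UMIs in control and 2346.5 CPM in knockout-labelled Lum-high cells, whereas the Y-linked Ddx3y stood at 72.9 CPM and 0 UMIs. The libraries shared 22 barcode sequences, of which 1 belonged to a Lum-high cell in each library and 0 to a Lum-high cell in both.

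Lumican belongs to the small leucine-rich proteoglycans, secreted proteins that bind collagen fibrils and limit how thick they grow. Fibroblasts build the interstitial matrix by making procollagen, folding and modifying it in the endoplasmic reticulum, and crosslinking it outside the cell. In the developing pancreas the mesenchyme surrounds the branching epithelium and sends it growth signals, and it is the source of later stromal and perivascular cells.

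Lum had a median of 4 UMIs per Lum-high cell in each library, with maxima of 19 (control) and 17 (knockout-labelled). Many members lay at the threshold: 118 control cells (39.5%) and 51 knockout-labelled cells (32.9%) had exactly 3 UMIs. Just outside it, 181 and 105 mesenchymal cells had exactly 2. Cells with 10 or more Lum UMIs numbered 6 and 9. These values chose the cells and are a description.

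**Figure D1:**
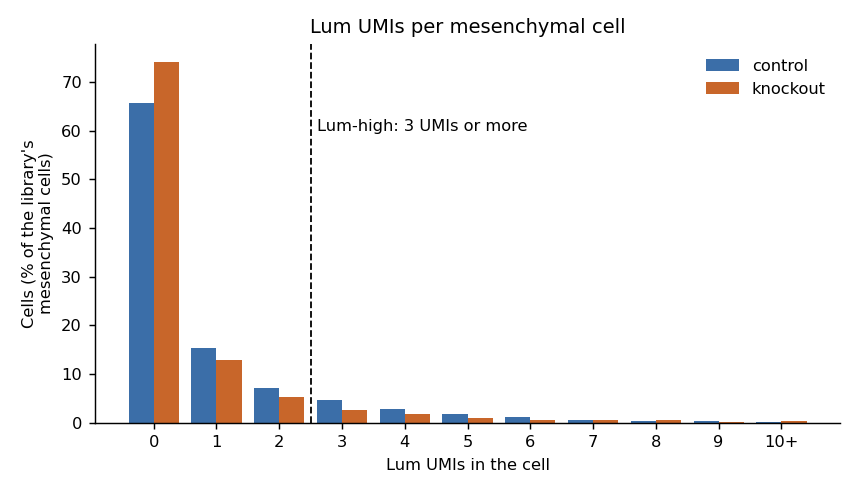
Share of each library's mesenchymal cells (vertical axis, percent) by the number of Lum UMIs in the cell (horizontal axis, cells with 10 or more together). Most cells have no Lum UMI (65.7% of control and 74.1% of knockout-labelled cells), and the counts decline without a gap at the threshold of 3.

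The label of collagen-rich fibroblasts rests on Lum and on Col1a1, Cxcl12 and Bgn, which the rule did not use directly. These markers were chosen with earlier results of these data known, so their levels describe the cells and are no test of the label. Levels are CPM of UMIs summed over all cells of a class, with exact Poisson 95% intervals that cover counting error only. Col1a1, the alpha 1 chain of type I collagen, stood at 959 CPM (918 to 1002) in Lum-high and 632 CPM in Lum-low control cells, and at 712 CPM (668 to 758) and 533 CPM in the knockout-labelled library. Bgn, which encodes the related proteoglycan biglycan, stood at 239.98 against 173 CPM and at 229 against 168 CPM. Cxcl12, the chemokine ligand of Cxcr4, differed most of the 3, at 429 CPM (401 to 458) against 173 CPM in the control and 537 CPM (499 to 578) against 172 CPM in the knockout-labelled library. All 3 were higher in Lum-high cells of both libraries, and as log2 ratios of CPM plus 5 the differences were 0.60 and 0.41 for Col1a1, 0.46 and 0.44 for Bgn, and 1.28 and 1.61 for Cxcl12. Of the 3, only Cxcl12 was at least 1.5-fold higher in both libraries. Col3a1 and Col1a2 belong to the gate and are left out here. General mesenchymal genes varied. Pdgfra, a growth factor receptor of fibroblasts, stood at 66.2 against 58.8 CPM and 84.5 against 61.9 CPM. Vim, which encodes vimentin, was lower, at 744 against 827 and 857 against 895 CPM. Dcn, also a general mesenchymal gene, differed more than Col1a1 and Bgn, with log2 ratios of 1.76 and 2.19.

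Markers of other cells summed to lower levels in Lum-high cells for mesothelium and immune cells, higher levels for neural cells, and nearby levels for epithelium and endothelium. The epithelial, mesothelial and endothelial sums include the marker pairs that the rule limited in both classes, so these sums are partly set by the rule. Summed over 15 epithelial genes, the level was 118 CPM in Lum-high and 123 CPM in Lum-low control cells, and 108 and 93.9 CPM in the knockout-labelled library. The 12 mesothelial genes summed to 34.3 against 58.1 CPM and 37.9 against 69.2 CPM, with Muc16 and Gpm6a at 0 in Lum-high cells of both libraries. The 11 endothelial genes summed to 87.6 against 93.0 CPM and 102 against 97.7 CPM, with Tie1 at 0 in both. The 12 immune genes summed to 30.5 against 123 CPM and 24.8 against 32.1 CPM, with Csf1r at 0 in both. The 13 endocrine genes summed to 43.8 against 34.1 CPM in the control and 5.10 against 4.50 CPM in the knockout-labelled library. Of them, 12 had UMIs in control and 5 in knockout-labelled Lum-high cells, with Fev at 0 in both. The 12 neural genes summed to 159.5 against 61.4 CPM and 323 against 94.3 CPM. Stmn2 alone gave 123 and 291 CPM of this in Lum-high cells, while the glial factors Sox10 and Foxd3 and the neuronal filament gene Prph were at 0 there in both libraries. Lum-high sums hold fewer UMIs than Lum-low sums, so a 0 for a low gene says little. Tie1 and Foxd3 were also at 0 in knockout-labelled Lum-low cells. The 9 erythroid genes summed to 163 against 895 CPM in the control and 5898 against 1264 CPM in the knockout-labelled library, where 1 Lum-high cell held 7581 of 8091 haemoglobin UMIs, and 375 CPM remained without it.

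The share of mesenchymal cells that were Lum-high was lower in the knockout-labelled library, though not at the highest Lum counts. It was 11.8% (299 of 2524, exact Clopper-Pearson 95% interval 10.6 to 13.2) in the control and 7.82% (155 of 1982, 6.68 to 9.09) in the knockout-labelled library, a ratio of 0.660 (log-normal interval 0.549 to 0.794). The knockout-labelled cells were sequenced more deeply, with a median of 7425.5 UMIs per mesenchymal cell kept for thinning against 6137. After every cell was thinned to 3000 UMIs, cells with at least 2 Lum UMIs made up 9.41% (235 of 2497, 8.29 to 10.6) and 5.01% (98 of 1958, 4.08 to 6.07), a ratio of 0.532 (0.423 to 0.668). Cells with any Lum UMI made up 23.3% and 14.7% after thinning, a ratio of 0.630 (0.554 to 0.716), and 34.3% and 25.9% before it. With at least 5 Lum UMIs and no thinning, the shares lay nearer to each other, at 4.44% and 3.48%. Cells with 10 or more numbered 6 of 2524 and 9 of 1982, so the order turned there, on few cells. Epithelial cells, with at least 2 UMIs on Epcam and Cdh1 and under 3 on Col3a1 and Col1a2, give a rough level of free RNA. The collagen limit may make this level too low. Of these cells, 1.04% (7 of 676) and 0.442% (2 of 452) had a Lum UMI after thinning, at median depths of 12814 and 14680 UMIs before it. The intervals do not include differences between embryos.

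Within each library, Lum-high cells had slightly deeper profiles than Lum-low cells, with medians of 6538 against 6075 UMIs in the control and 8313 against 7320 in the knockout-labelled library. The mitochondrial share was alike, at 2.19% against 2.17% and 2.64% against 2.596%. The summed profiles held 2100178 UMIs of control and 1373082 UMIs of knockout-labelled Lum-high cells, against 14825024 and 14208846 UMIs of Lum-low cells. Of 11522 genes with at least 20 UMIs in each library, 105 (0.911%) were at least 1.5-fold higher in Lum-high cells of both libraries and 26 (0.226%) at least 1.5-fold lower. With haemoglobin, mitochondrial and ribosomal genes left out of the total, 127 were higher and 73 lower, so that 63.5% of the genes past the fold were higher instead of 80.2%. To any extent, 3700 genes (32.1%) were higher and 3048 (26.5%) lower in both libraries, and the counts of list members below are to be read against these shares. The median log2 ratio over all genes was 0.02 in the control and 0.01 in the knockout-labelled library. In the control alone, 212 genes (1.84%) were past 1.5-fold upward and 112 (0.972%) downward, and in the knockout-labelled library 344 (2.99%) and 270 (2.34%). Because the cells were chosen on the same counts, these ratios describe the cells and are no test.

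The 12 genes that stood highest in Lum-high cells, apart from those of the rule, included the chemokines Cxcl12 and Cxcl13, the matrix genes Dcn, Col14a1 and Col8a1, and the adhesion gene Alcam. Plac8, a small cysteine-rich protein, stood at 173 CPM (156 to 192) in Lum-high against 31.2 CPM in Lum-low control cells, and at 182 CPM (160.2 to 206) against 30.9 CPM in the knockout-labelled library. Its log2 ratios were 2.30 and 2.38, and the Lum-high levels of both libraries were alike within their intervals. Cxcl13, a chemokine known from stromal cells that organise lymphoid tissue, stood at 73.8 CPM (62.6 to 86.4) against 13.9 CPM and at 133 CPM (115 to 154) against 17.5 CPM, with log2 ratios of 2.06 and 2.62. Figf, the X-linked gene of the lymphatic growth factor Vegf-D, stood at 92.4 against 16.5 CPM and at 55.4 against 9.57 CPM, with log2 ratios of 2.18 and 2.05. Stmn2, a microtubule regulator best known from neurons, stood at 123 against 25.7 CPM and at 291 against 64.4 CPM, so that it differed by class and by library. Further down by ratio, below Dcn and Col14a1, came S100a10, the annexin A2 partner, with 322 against 127 CPM and 296 against 119 CPM. Alcam, an adhesion molecule of the immunoglobulin family, was also among the 12, with 228 against 91.3 CPM and 154 against 57.4 CPM.

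Because Cxcl12, Cxcl13 and Plac8 stood high together in these cells, the 250 bases before their RefSeq transcription starts (genome GRCm38.p6) are shown, read 5′ to 3′ on the gene's strand. The windows are chr6:117168285-117168534 on the plus strand for Cxcl12, chr5:95956689-95956938 on the plus strand for Cxcl13, and chr5:100572206-100572455 on the minus strand for Plac8, for which the first of the 2 RefSeq starts in the table is shown. Capitals mark matches to a TATA box (TATAAA), an AP-1 site (TGANTCA) or a GC box (GGGCGG) on either strand.
Cxcl12: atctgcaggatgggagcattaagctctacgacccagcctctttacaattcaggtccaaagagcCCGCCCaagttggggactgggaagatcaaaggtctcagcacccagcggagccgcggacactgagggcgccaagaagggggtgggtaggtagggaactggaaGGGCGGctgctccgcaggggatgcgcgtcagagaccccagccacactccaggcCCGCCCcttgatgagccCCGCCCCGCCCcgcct
Cxcl13: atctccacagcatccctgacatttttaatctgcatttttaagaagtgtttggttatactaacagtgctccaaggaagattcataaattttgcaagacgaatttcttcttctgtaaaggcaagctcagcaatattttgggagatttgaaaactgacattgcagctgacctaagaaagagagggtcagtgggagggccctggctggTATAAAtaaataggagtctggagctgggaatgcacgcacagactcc
Plac8: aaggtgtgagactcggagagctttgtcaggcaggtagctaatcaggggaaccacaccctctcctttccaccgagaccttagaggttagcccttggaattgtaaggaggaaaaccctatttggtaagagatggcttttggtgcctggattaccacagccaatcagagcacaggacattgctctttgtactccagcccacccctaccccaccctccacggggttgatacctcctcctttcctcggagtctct
The 3 windows share no motif of those searched. Cxcl12 holds 5 GC boxes, of which 2 overlap by a base, and no other motif. Cxcl13 holds 1 TATA box that starts at base 205 of the window, and Plac8 holds none of the 3 motifs. Of 32544 RefSeq mouse promoters of 300 bases (250 before and 50 after the start), 35.9% hold the GC box, 13.6% the TATA box and 7.79% the AP-1 site. These matches are letters only and show no binding.

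**Figure D2:**
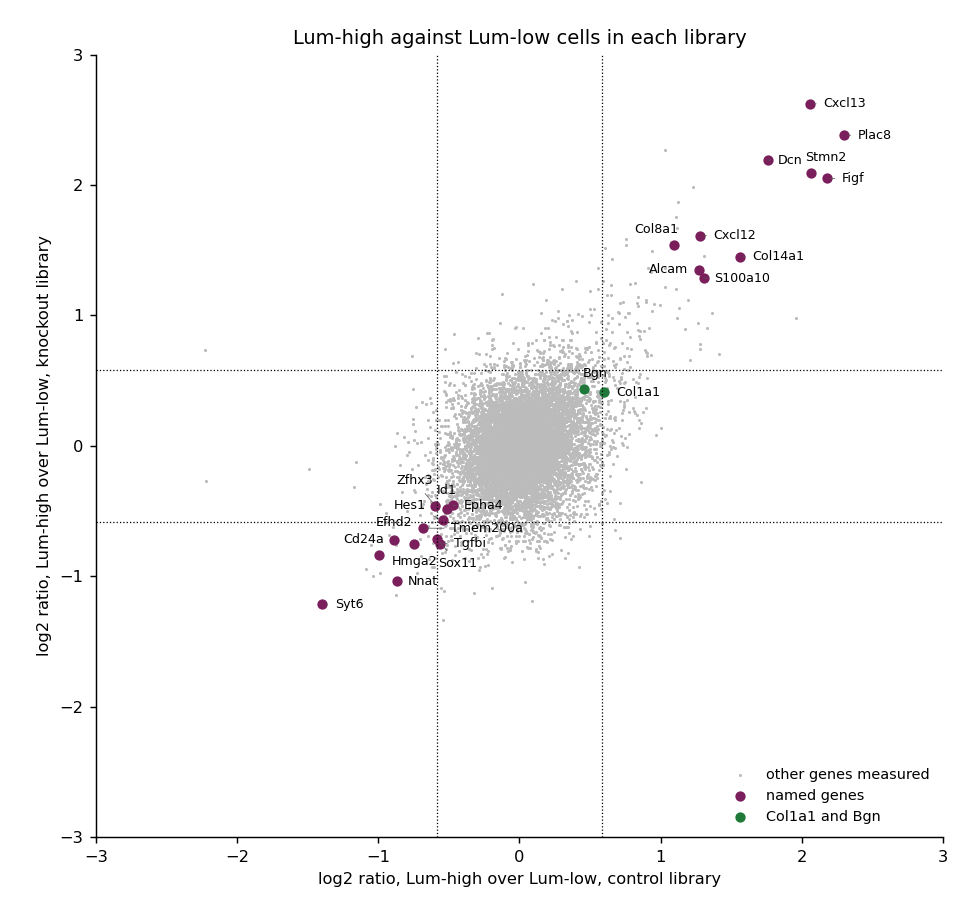
Each point is 1 gene, placed by its log2 ratio of Lum-high over Lum-low cells in the control (horizontal axis) and the knockout-labelled library (vertical axis), on CPM plus 5. Named genes high in both libraries, such as Plac8 (2.30 and 2.38) and Dcn (1.76 and 2.19), lie at the upper right, and Syt6 (-1.40 and -1.22) lies at the lower left.

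Among the proteoglycans of lumican's own family, Dcn, which encodes decorin, followed Lum most closely. It stood at 627 CPM (593 to 661) in Lum-high and 182 CPM in Lum-low control cells, and at 556 CPM (517 to 597) against 118 CPM in the knockout-labelled library, with log2 ratios of 1.76 and 2.19. Dcn (chromosome 10, 97479609 to 97518143) and Lum (97565128 to 97572703) are neighbours on the plus strand of GRCm38. The next members of that cluster, Kera (97606879 to 97613692) and Epyc (97644068 to 97682454), were almost silent: Kera had 3 UMIs in control and 0 in knockout-labelled Lum-high cells, and Epyc had 0 in both. Ogn, the osteoglycin gene, stood at 67.6 against 27.2 CPM and at 29.9 against 13.7 CPM, and Aspn, the asporin gene, at 62.9 against 51.1 CPM and 26.2 against 20.1 CPM. Without Lum, 6 proteoglycan genes had enough UMIs, of which 5 were higher in both libraries and 2 (Dcn and Ogn) past 1.5-fold, against 0.911% of all genes. Their median log2 ratios were 0.40 and 0.46.

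Collagen genes outside the gate were higher in part. Of 7 fibrillar collagen genes, 3 were higher in both libraries, 1 lower and 0 past 1.5-fold, and the medians of 0.06 and -0.04 were near those of all genes. These medians depended on the processing: with every cell thinned to 3000 UMIs, 5 genes remained, with medians of 0.44 and 0.39, and with a minimum of 100 UMIs the same number remained, with 0.36 and 0.27. When Lum-high needed 5 Lum UMIs the medians were 0.36 and -0.033. The 3 were Col1a1, Col5a1 (72.9 against 54.9 CPM and 75.01 against 48.9 CPM) and Col5a2 (109.5 against 84.3 CPM and 88.1 against 72.5 CPM), which join the same fibrils. Of 12 other interstitial collagens, 8 were higher in both libraries (32.1% of all genes), 2 were lower (26.5%) and 3 were past 1.5-fold upward (0.911%), with medians of 0.28 and 0.43. The 3 were the fibril-associated Col14a1 (132 against 41.6 CPM and 131 against 44.8 CPM) and Col12a1 (27.6 against 13.1 CPM and 21.1 against 9.22 CPM), and the network-forming Col8a1 (124 against 55.3 CPM and 184 against 59.9 CPM). The largest ratios among collagens thus lay in fibril-associated and network-forming chains. Of 14 basement membrane genes, 8 were higher in both and 0 lower, with 0 past 1.5-fold. Nid1, which encodes the linker nidogen, stood at 78.6 against 57.6 CPM and 92.5 against 59.9 CPM.

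The machinery that makes and crosslinks collagen was higher by small amounts across most of its genes. Of 23 processing genes, 18 were higher in both libraries, 1 was lower and 2 were past 1.5-fold, with medians of 0.23 and 0.33. Those 2 were Lox, the lysyl oxidase that starts crosslinking (38.1 against 12.1 CPM and 18.9 against 7.81 CPM), and Plod2, a lysyl hydroxylase (46.2 against 27.5 CPM and 46.6 against 21.2 CPM). Serpinh1, the collagen chaperone Hsp47, stood at 1242 against 1004 CPM and 1117 against 921 CPM, and Sparc, a collagen-binding matricellular protein, at 1708 against 1179.6 CPM and 1550.5 against 1009 CPM. Of 32 genes of the general secretory pathway, 29 were higher in both libraries, 0 lower and 1 past 1.5-fold, with medians of 0.17 and 0.21. That 1 was Creb3l1, a membrane-bound transcription factor of secretory cells, at 50.9 against 30.02 CPM and 40.8 against 25.1 CPM. The chaperones Hspa5 (493 against 386 CPM and 497 against 392 CPM) and Calr (854 against 694 CPM and 806 against 632 CPM) show the usual size. The number higher in both was 23 with TMM scaling, 25 with median-of-ratios scaling and 21 without the cells of cluster 4, which is described below, so that part of it moves with the scaling.

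Other matrix genes were higher in a few members each. Of 15 elastic fibre genes, 10 were higher and 2 lower in both libraries, with Fbn1, the fibrillin-1 gene, past 1.5-fold (71.9 against 42.4 CPM and 89.6 against 41.4 CPM). Of 22 further glycoprotein genes, 12 were higher, 1 was lower and 4 were past 1.5-fold. These were Matn2 (55.7 against 19.5 CPM and 39.3 against 11.1 CPM), Fn1, the fibronectin gene (35.7 against 13.6 CPM and 38.6 against 16.0 CPM), Abi3bp (49.996 against 23.7 CPM and 31.3 against 12.7 CPM) and Spon1 (19.05 against 10.7 CPM and 26.9 against 9.36 CPM). Of 20 proteases and inhibitors, 13 were higher and 4 lower. The versican-cleaving Adamts5 was past 1.5-fold upward (70.5 against 36.7 CPM and 40.1 against 20.5 CPM) and the serine protease gene Htra1 downward (13.3 against 28.6 CPM and 13.1 against 35.0 CPM).

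Signalling genes were mixed, with a few secreted modulators standing out. Of 31 growth factors and modulators, 14 were higher and 7 lower in both libraries, against 32.1% and 26.5% of all genes, with medians of 0.07 and 0.18, and 3 were past 1.5-fold upward. These were Rspo3, which strengthens Wnt signals (66.7 against 28.1 CPM and 50.3 against 22.9 CPM), the secreted Wnt inhibitor Sfrp2 (71.9 against 36.7 CPM and 72.8 against 37.2 CPM) and Igfbp5, a binding protein of insulin-like growth factors (122 against 77.0 CPM and 203 against 117 CPM). Fgf9 was the 1 past the fold downward. Of 7 chemokines and cytokines, 2 were past 1.5-fold, Cxcl12 and Cxcl13, and the other 5 were not. Of 13 genes of the TGF-beta response, 2 were higher, 4 lower and 0 past the fold, and of 8 Hedgehog pathway genes 4 were higher, 1 lower and 0 past it.

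Of 37 mesenchymal transcription factors, 20 were higher and 14 lower in both libraries, so that both directions were above the shares of all genes (32.1% and 26.5%), and 4 were past 1.5-fold upward, against 0.911%. Osr1, a zinc-finger factor of intermediate and splanchnic mesoderm, stood at 268 against 147 CPM and 279 against 124 CPM. Gata6 stood at 25.2 against 9.04 CPM and 45.2 against 16.8 CPM, Foxp2 at 13.3 against 5.87 CPM and 29.9 against 6.97 CPM, and Tcf21, known from visceral mesenchyme, at 58.6 against 36.6 CPM and 83.8 against 45.6 CPM. By contrast, a list of 5 measured tendon, cartilage and bone genes had 0 higher and 3 lower. After thinning, an Osr1 UMI was found in 51.2% of Lum-high and 33.2% of Lum-low control cells and in 53.5% and 27.0% of knockout-labelled cells, and before thinning in 68.9%, 49.9%, 82.6% and 46.3%. Barx1, a factor of stomach mesenchyme, did not separate the classes, with 6.02% against 5.96% and 5.81% against 6.38% of thinned cells (11.04%, 10.5%, 13.5% and 12.5% before thinning). In epithelial cells, thinned shares were 0.148% and 0.442% for both genes.

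Genes of contractile and adventitial cells were higher only in part. Of 15 mural and smooth muscle genes, 8 were higher and 4 lower in both libraries, and 2 were past 1.5-fold: Myl9 (154 against 90.6 CPM and 161 against 72.4 CPM) and Acta2, smooth muscle actin (90.5 against 55.9 CPM and 79.4 against 32.9 CPM). Pdgfrb, the pericyte receptor, was lower, at 118 against 151 CPM and 67.0 against 73.8 CPM. Myh11, the smooth muscle myosin, was at 0 in Lum-high cells of both libraries, whose sums hold fewer UMIs than those of Lum-low cells. The 18 listed mural genes summed to 1142 against 983 CPM and 980.3 against 807 CPM, and their part in the other ratios was not tested. Of 9 adventitial fibroblast genes, 4 were higher, 2 lower and 0 past 1.5-fold in both, although Cd34 stood at 30.9 against 15.0 CPM and 13.8 against 8.09 CPM.

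Ratios of cell cycle genes depended on the processing. Of 40 S phase genes, 17 were higher and 5 lower in both libraries, and of 52 genes of G2 and mitosis 25 were higher and 3 lower, all with 0 past 1.5-fold and with medians between 0.02 and 0.12. The G2 and mitosis medians were -0.44 and -0.067 after thinning with at least 2 Lum UMIs, 0.29 and 0.30 when Lum-high needed 5 Lum UMIs, and 0.31 and 0.59 without the cells of cluster 4. The S phase medians ranged from -0.17 to 0.15 (control) and from -0.095 to 0.24 (knockout-labelled) over all alternatives. Mki67 UMIs were found in 14.0% of Lum-high and 13.0% of Lum-low thinned control cells and in 12.3% and 14.5% of knockout-labelled cells (20.4%, 19.9%, 23.9% and 22.3% before thinning). Of 20 imprinted growth genes, 12 were higher and 3 lower, with Nnat alone past 1.5-fold, downward. Of 18 COMPASS subunits, 8 were higher, 3 lower and 0 past 1.5-fold, and of 21 immediate early and stress genes 8, 4 and 0.

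**Figure D3:**
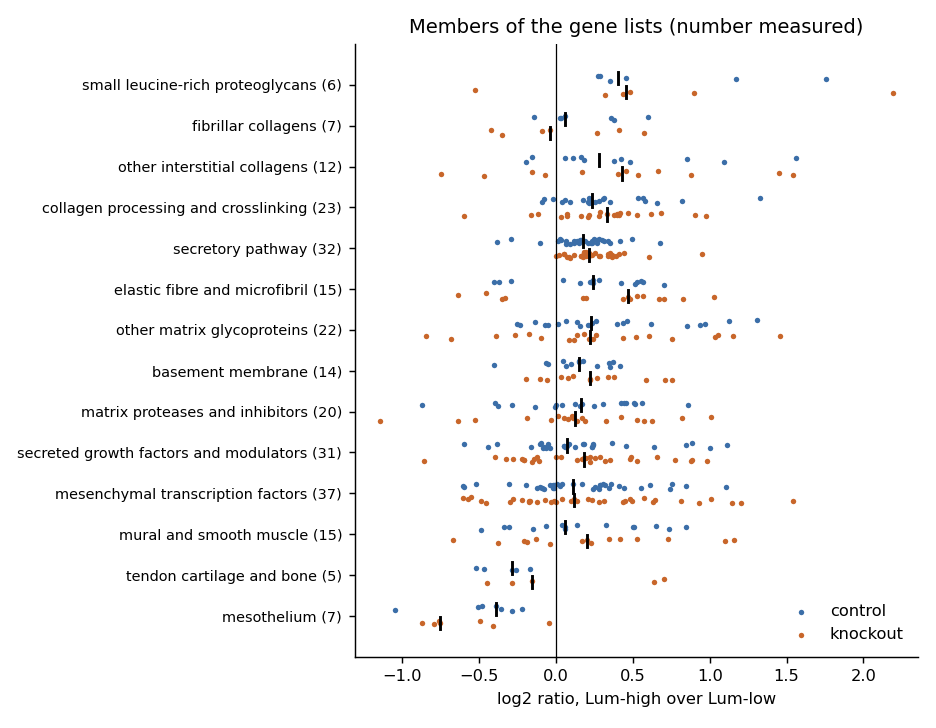
Log2 ratio of Lum-high over Lum-low cells (horizontal axis, CPM plus 5) for every measured member of each gene list, by library. Members of the collagen processing and secretory pathway lists sit mostly right of 0 (medians 0.23 and 0.33, and 0.17 and 0.21), while the 7 mesothelial genes sit left of 0.

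The 12 genes named as lowest in Lum-high cells included surface proteins, transcription factors and an imprinted gene. Syt6, a synaptotagmin, stood at 28.6 CPM (21.8 to 36.8) in Lum-high and 83.4 CPM in Lum-low control cells, and at 43.0 CPM (32.7 to 55.4) against 106 CPM in the knockout-labelled library, with log2 ratios of -1.40 and -1.22. The imprinted gene Nnat, which encodes neuronatin, stood at 230.5 against 426 CPM and 294 against 609 CPM. Hmga2, a chromatin protein of fetal and proliferating cells, stood at 160.5 against 272 CPM and 262 against 444 CPM, and Cd24a, a surface glycoprotein, at 111 against 227 CPM and 168 against 304 CPM. Sox11, a transcription factor of embryonic progenitors, stood at 83.3 against 127 CPM and 106 against 177 CPM. Hes1, the Notch effector, stood at 1065 against 1556 CPM and 495 against 737 CPM, and Id1, a target of BMP signals, at 528 against 756 CPM and 392 against 549 CPM. Tgfbi, a secreted adhesion protein, stood at 382 against 568 CPM and 284 against 481 CPM. The other 4 of the 12 named were Efhd2, Tmem200a, Zfhx3 and Epha4, with log2 ratios between -0.89 and -0.46.

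The ratios also followed the number of Lum UMIs in the cell. In cells with 0, 1 to 2, 3 to 4, 5 to 9 and 10 or more Lum UMIs, Dcn stood at 145, 284, 522, 743 and 1401 CPM in the control and at 90.6, 222, 409, 664 and 1267 CPM in the knockout-labelled library. Plac8 followed the same order, from 21.99 to 545 CPM and from 23.8 to 491 CPM, as did Cxcl12, from 152 to 1051 CPM and from 143 to 1267 CPM. Col1a1 had a shallower slope, from 595 to 1809.7 CPM in the control and from 514 to 905 CPM in the knockout-labelled library. Nnat ran the other way, from 460.5 to 117 CPM and from 657 to 181 CPM. Bgn did not follow Lum beyond low counts, with 158, 216, 256, 222 and 136 CPM in the control, the last from 7 UMIs. In the knockout-labelled library it stood at 153, 229, 219, 244 and 233 CPM. The highest class held only 6 and 9 cells, and without it the order of the other 4 was the same for Dcn, Plac8, Cxcl12, Col1a1 and Nnat.

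**Figure D4:**
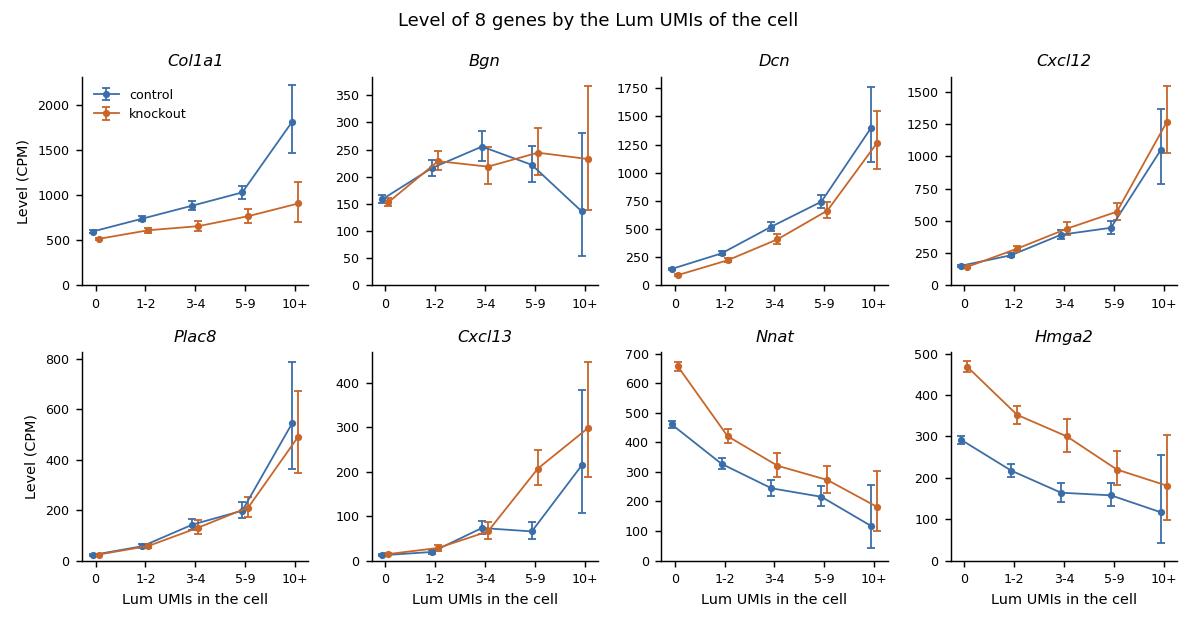
Level of 8 genes (vertical axes, CPM with exact Poisson 95% intervals, each panel with its own scale from 0) by the Lum UMIs of the cell (horizontal axes), in each library. Dcn reaches 1401 and 1267 CPM in the cells with 10 or more Lum UMIs, and Nnat is highest, at 460.5 and 657 CPM, in cells with none.

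The Lum-high cells did not form 1 uniform group. Clustered without the genes of the rule, the mesenchymal cells of both libraries fell into 11 clusters, and Lum-high cells were present in 10 of them. Cluster 4, with Stmn2, Cxcl13 and Plac8 as its first 3 leading genes, held 166 Lum-high cells among its 517 cells (32.1%). It took in 101 of the 299 control Lum-high cells (33.8%) against 11.1% of control Lum-low cells, and 65 of the 155 knockout-labelled Lum-high cells (41.9%) against 5.69% of Lum-low cells. Cluster 9, led by Barx1, held 0 Lum-high cells of 220, and cluster 11, led by Cav1, held 1 of 156. The remaining Lum-high cells were spread, 68 of them in cluster 2, which is led by cell cycle genes. Where they lay differed by library: cluster 1 held 101 control and 1 knockout-labelled Lum-high cells, but that cluster was itself nearly all control (764 and 20 cells). With each library clustered alone, a choice added after the data were seen, the cluster richest in Lum-high cells held 97 Lum-high cells of 369 (26.3%) in the control and 63 of 157 (40.1%) in the knockout-labelled library.

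The leading genes differed in how many Lum-high cells showed a UMI of them. After thinning, 45 of 299 control Lum-high cells (15.1%) and 21 of 155 knockout-labelled ones (13.5%) had UMIs of at least 2 of the 3 genes Plac8, Cxcl13 and Figf, against 37 of 2198 (1.68%) and 29 of 1803 (1.61%) Lum-low cells. None of the 3 was detected in 201 control (67.2%) and 87 knockout-labelled (56.1%) Lum-high cells. All 3 stood near the top of the Lum-high over Lum-low ranking of these same cells, as did Stmn2, which was not counted here. In Lum-low cells Cxcl13 stood at only 13.9 and 17.5 CPM and Figf at 16.5 and 9.57 CPM. The higher shares of the 3 genes in Lum-high cells were thus partly set by their choice. They describe the cells and are no test. At this depth a low transcript is often missed, so the share without a UMI does not limit the share of cells that express these genes. A Plac8 UMI was found in 22.4% of Lum-high and 6.78% of Lum-low thinned control cells, and in 33.5% and 7.04% of knockout-labelled cells (30.4%, 11.8%, 54.2% and 13.6% before thinning). Dcn UMIs were found in more cells, with 66.6% against 31.6% and 63.9% against 23.5% (82.6%, 48.0%, 83.2% and 39.1% before thinning). The thinned epithelial shares were 2.22% and 1.11% for Plac8 and 0.740% and 0.664% for Dcn.

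Some of the differences held inside cluster 4 and some did not, and part held outside it. Inside cluster 4, Lum-high cells had more Dcn than Lum-low cells (1077 against 552 CPM and 975 against 569 CPM), more Plac8 (414 against 124 CPM and 354 against 179.9 CPM) and more Cxcl13 (187 against 83.7 CPM and 299 against 173 CPM). Col1a1 (1500 against 1074 and 857 against 817 CPM) and Cxcl12 (876 against 613 and 866 against 748 CPM) differed less in the knockout-labelled library. Bgn (261 against 232 and 220 against 267 CPM) and Stmn2 (319 against 153 and 579 against 679 CPM) were higher only in the control. Without the cells of cluster 4, the log2 ratios nearer to 0 of the 2 libraries were 1.52 for Dcn, 1.29 for Plac8, 0.77 for Cxcl12, and 0.45 for Alcam. The number of genes past 1.5-fold in both libraries was then 51 higher and 38 lower, in place of 105 and 26.

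Between the libraries, more genes of Lum-high cells stood lower than higher in the knockout-labelled library, and Aspn, Ogn and Col6a1 were among the lower ones. Of 9091 genes with at least 20 UMIs, 253 (2.78%) were at least 1.5-fold higher in the knockout-labelled library and 496 (5.46%) at least 1.5-fold lower. In Lum-low cells, whose sums hold more UMIs, the numbers were 63 (0.494%) and 125 (0.98%) of 12751. The median over all genes in Lum-high cells was -0.03 on the log2 scale. The values below have no replicate check, and what they owe to genotype cannot be told apart from sex or embryo.

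Some matrix lists had lower medians in the knockout-labelled Lum-high cells, with nearby values in Lum-low cells, and other matrix lists did not. Of all 9091 genes, 4938 (54.3%) were lower to any extent. All 5 measured proteoglycans other than Lum were lower, 3 of them past 1.5-fold, with a median log2 ratio of -0.80 (-0.60 in Lum-low cells). Aspn stood at 62.9 CPM (52.6 to 74.5) in control and 26.2 CPM (18.4 to 36.3) in knockout-labelled Lum-high cells, and Ogn, with log2 ratios of -1.06 in Lum-high and -0.78 in Lum-low cells, at 67.6 CPM (57.0 to 79.7) and 29.9 CPM (21.4 to 40.5). Without the cells of cluster 4 the Ogn ratio in Lum-high cells was 0.039. Dcn and Bgn differed less, with log2 ratios of -0.17 and -0.06. Col6a1, a chain of the beaded filament collagen, stood at 208 CPM (189 to 228) and 103 CPM (86.4 to 121), a log2 ratio of -0.98, close to its -1.01 in Lum-low cells. Of 11 other interstitial collagens, 8 were lower, 4 of them past 1.5-fold, and of 16 further glycoproteins 12 were lower, 7 of them past it, with medians of -0.32 for each list (-0.24 and -0.22 in Lum-low cells). The 5 fibrillar collagens outside the gate had a median of -0.30 (-0.20 in Lum-low cells), with 3 lower, near the share over all genes, and 0 past the fold. Of 13 basement membrane genes, 6 were higher and 7 lower (median -0.02), and of 15 elastic fibre genes 6 were higher and 9 lower (median -0.05). Collagen processing and secretory pathway genes stayed near the all-gene level, with medians of -0.06 and -0.08.

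Among single genes, Hes1 was about as much lower in Lum-high as in Lum-low cells, at 1065 CPM (1022 to 1110.2) in control and 495 CPM (459 to 534) in knockout-labelled Lum-high cells, with log2 ratios of -1.10 and -1.07. The lysosomal protease gene Ctsk (51.4 and 21.8 CPM), the early response gene Ier3 (50.9 and 18.9 CPM), the AP-1 gene Fosl2 (53.3 and 24.0 CPM) and Ifitm3, an interferon-induced membrane protein gene (295 and 149 CPM), had log2 ratios between -1.22 and -0.97, and between -0.90 and -0.76 in Lum-low cells. Higher in both classes were Scand1, at 47.6 CPM (38.7 to 57.9) and 146 CPM (127 to 168) with log2 ratios of 1.52 and 1.10, Stmn2 (1.21 and 1.18), Rala, a small GTPase gene (0.84 and 0.72), and Nenf, the neudesin gene (0.79 and 0.55). Mmd, Hist1h2ae and PISD completed the 10 highest, with log2 ratios of 0.93, 0.93 and 0.82 in Lum-high cells, though Mmd turned to -0.51 after thinning with at least 2 Lum UMIs. The counts of PISD are uncertain because it may share reads with a near-identical gene.

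A few genes differed between the libraries in Lum-high cells and little in Lum-low cells. Mgp, which encodes an inhibitor of calcification, stood at 23.8 CPM (17.7 to 31.4) in control and 77.9 CPM (63.9 to 94.2) in knockout-labelled Lum-high cells, a log2 ratio of 1.53 against 0.28 in Lum-low cells. Most of its UMIs lay in cluster 4, where Lum-high cells had 57.3 CPM (39 UMIs) and 196 CPM (101 UMIs). Outside it they had 7.75 CPM (11 UMIs) and 6.99 CPM (6 UMIs), so the difference was found in that cluster and was -0.089 on the log2 scale without it. Nrp2, a co-receptor of semaphorins and lymphatic growth factors, stood at 36.7 and 77.2 CPM (0.98 against 0.23), and Cxcl13 at 73.8 and 133 CPM (0.81 against 0.25). Id2, an inhibitor of basic helix-loop-helix factors, stood at 217 and 336 CPM, while in Lum-low cells it stood at 175 and 144 CPM. The Id2 difference was larger in Lum-high cells of cluster 4 (288 and 534 CPM) than in those outside that cluster (183 and 218 CPM). Mef2c, a muscle and mesenchymal factor, stood at 32.4 and 58.3 CPM against 59.5 and 56.9 CPM.

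Lower in knockout-labelled Lum-high cells and little different in Lum-low cells were Postn, the periostin gene (55.7 and 23.3 CPM against 26.0 and 21.7 CPM), Igfbp3 (101 and 50.3 CPM against 48.1 and 45.3 CPM) and Mgst3, a glutathione transferase gene (58.1 and 27.7 CPM against 39.5 and 40.0 CPM). For these 3 genes the Lum-high level was above the Lum-low level in the control and near or below it in the knockout-labelled library. Ilkap and Rwdd4a followed, with differences between the log2 ratios of -0.76 and -0.74. S100a8 and S100a9, genes of neutrophil granule proteins, topped the list upward with differences of 1.956 and 2.97. Both were lower in the knockout-labelled library, and the fall was smaller in Lum-high cells. The log2 ratios were -2.24 and -0.49 in Lum-high cells, and -4.20 and -3.46 in Lum-low cells. In control Lum-low cells 5 cells held 84.2% of the 2286 S100a8 UMIs and 80.3% of the 1269 S100a9 UMIs. The S100a8 difference turned to -0.55 when mesenchymal cells needed 10 collagen UMIs.

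**Figure D5:**
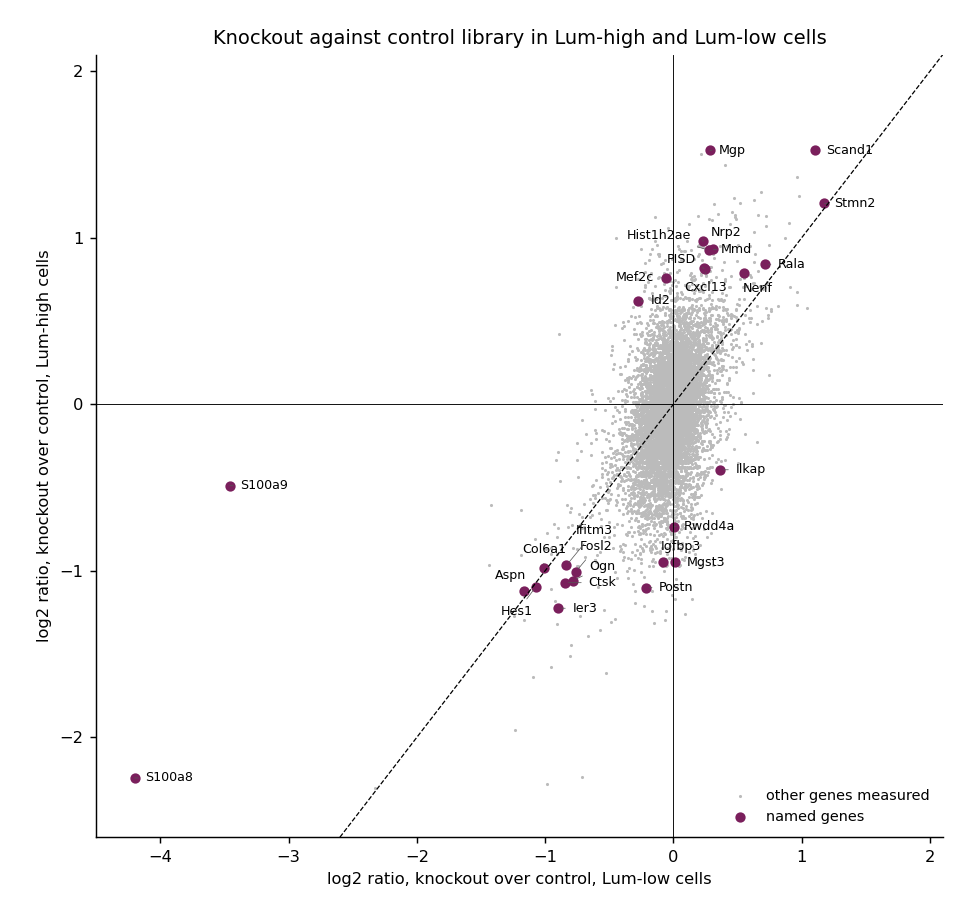
Each point is 1 gene, placed by its log2 ratio of the knockout-labelled over the control library in Lum-low cells (horizontal axis) and in Lum-high cells (vertical axis), on CPM plus 5, with a dashed line where both are equal. Hes1 (-1.07 and -1.10) and Col6a1 (-1.01 and -0.98) lie near the line, and Mgp (0.28 and 1.53) lies above it.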

How the data were processed

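Pancreata of 1 control and 1 knockout-titled embryo were dissociated, and sorted cells entered 10x 3' version 2 libraries, per the labels' protocols. Sample titles gave the groups. The deposited matrices hold UMI counts. The submitters' processing notes name Cell Ranger, Seurat 2 and 3 and the genome GRCm38, with no order of steps, and the aligner and gene annotation are not given there. A deposited table of cluster genes was not used, since it has no row for Lum.

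The members and gene lists were chosen with earlier results of these data known. Cell filters removed 29 control and 32 knockout-labelled barcodes, none of which met the mesenchymal gate. UMI counts were added up over the cells of a class in each library and scaled to CPM over all genes. Ratios are log2 of (CPM + 5), and genes needed at least 20 UMIs. Genes past the fold differ by at least 1.5-fold. No test was run, as each group has 1 library. Intervals are 95% (exact Poisson, exact Clopper-Pearson, log-normal for ratios of shares), and as they cover counting error only they are too narrow for a comparison of embryos. Cells were thinned to 3000 UMIs to compare shares. Doublets were kept. As an alternative, the highest simulated-doublet scores (0.8% per 1000 barcodes) were removed, 120 and 73 cells, of which 9 and 4 were Lum-high. For clusters, the 9 genes of the rule were left out, and 2000 variable genes, 30 principal components, 15 neighbours and Leiden resolution 1 were used.

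The genes named are, among those with at least 50 CPM, the 12 highest and 12 lowest by the ratio of Lum-high over Lum-low nearer to 0 of the 2 libraries, the 10 highest and 10 lowest by knockout over control in Lum-high cells, and the 5 highest and 5 lowest by that ratio minus the Lum-low ratio. Rule genes, ribosomal protein, mitochondrial, haemoglobin and Y-linked genes, Xist, Tsix and unnamed models were left out of the ranking, and list members may be named as examples. Results of 2 genes that met the rule are not reported here. The other-cell and mural markers came from lists of 9 to 18 genes. Alternatives covered cell filters, Lum and collagen thresholds, doublets, thinning, cycling cells, scaling (TMM from edgeR 4.0.16, median of ratios, mean of cells), pseudocounts and count minimums. Leaving out 1 haemoglobin-rich cell, leaving out cluster 4 and clustering each library alone were added after the data were seen. Simulated Poisson counts were used to test only the ratio between libraries, without the added 5 CPM, and its counting interval. They held no variation between cells or embryos. Thinning was checked for the total it leaves per cell. The choice of cells, the clusters and the doublet scores were not tested in this way. Python 3.11.15, numpy 2.4.6, scipy 1.17.1, pandas 2.3.3, scikit-learn 1.9.0, leidenalg 0.10.2 and matplotlib 3.10.9 were used.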

Additional observations from a re-analysis of the deposited data

Results flagged for a closer look

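Haemoglobin genes differed between Lum-high and Lum-low cells in opposite directions in the 2 libraries. On the log2 scale, Lum-high over Lum-low, Hba-a1 stood at -2.71 in the control and 2.34 in the knockout-labelled library, Hba-a2 at -2.76 and 2.28, Hbb-bs at -2.22 and 2.27, and Hbb-bt at -2.95 and 1.75. A single knockout-labelled cell with 3 Lum UMIs held 7581 of the 8091 haemoglobin UMIs of the Lum-high cells of its library, out of 14776 UMIs in that cell. Without it, the knockout-labelled ratios were -2.34, -1.78, -1.40 and -1.93, and the erythroid list summed to 375 CPM in Lum-high cells in place of 5898 CPM.

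S100a9 also differed in opposite directions, at -2.23 in the control and 0.74 in the knockout-labelled library. In Lum-high cells it had 30 and 12 UMIs, and in control Lum-low cells 1 cell held 516 of 1269. None of these differences between the libraries was tested.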

How the results depend on the processing

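No paired analysis was possible because each group has 1 library, and no library could be left out for the same reason. Of 20 alternatives, none turned the direction of a count, and none of those that can change a share turned its direction. Scaling, pseudocounts and count minimums cannot change a share, and dropping the cell filters left the same cells. The 24 genes named for Lum-high over Lum-low had the same sign in all alternatives, as did 17 of 20 for knockout over control and 8 of 10 for the difference.

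The share of Lum-high cells (control, then knockout-labelled) was 19.02% and 13.1% with at least 2 Lum UMIs, 4.44% and 3.48% with at least 5, 21.8% and 15.8% with at least 10 UMIs on Col3a1 and Col1a2, 9.41% and 5.01% (ratio 0.532) after thinning with at least 2 Lum UMIs, and 9.10% and 4.96% (ratio 0.546) without the cells of cluster 4.

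The 105 genes higher in Lum-high cells became 65 at 2 Lum UMIs, 170 at 5, and 139 after thinning with at least 2 Lum UMIs. They became 237 with a pseudocount of 1 CPM, 29 with 20 CPM, and 51 without cluster 4. The 26 lower genes became 89 at 5 Lum UMIs, 42 against cells without Lum, 73 after thinning, 131 after thinning with at least 2 Lum UMIs, 73 with CPM without haemoglobin, mitochondrial and ribosomal genes, 154 with a pseudocount of 1 and 8 with 20. The 253 genes higher in the knockout-labelled library became 427 after thinning with at least 2 Lum UMIs, 397 with that CPM, 505 and 54 with the pseudocounts of 1 and 20, and 53 with a minimum of 100 UMIs. The 496 lower genes became 325 at 2 Lum UMIs, 876 and 68 with the pseudocounts of 1 and 20, and 107 with 100 UMIs. The pseudocount and the count minimum change which low genes can pass 1.5-fold.

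Signs turned for the knockout over control ratio of Mmd (-0.51 after thinning with at least 2 Lum UMIs), Mgp (-0.089) and Ogn (0.039), both without cluster 4, and for the difference of Mgp (-0.67 without cluster 4) and of S100a8 (-0.55 with 10 collagen UMIs). The cause was not tested. The median of the fibrillar collagens in the knockout-labelled library turned sign in 7 alternatives, and those of the cell cycle lists turned in some. Counts of 155 Lum-high cells limit every knockout-labelled value.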
